A study of Mus musculus with 96 samples.

Results

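Inflammatory chemokines are small secreted proteins that draw leukocytes along a gradient, and 9 of their genes were followed in the islets and liver of mice on a high-fat diet or chow: Ccl2, Ccl3, Ccl4, Ccl5, Ccl7, Cxcl1, Cxcl2, Cxcl9 and Cxcl10. They were chosen by name, and these 9 were among 20155 genes with values, of 21990 listed. All of them stood at higher mean levels in the liver of high-fat-fed mice, whereas no diet difference of any of them was called in islets with the values as deposited, where 5 stayed under 1 FPKM in every library.

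The animals were 48 male C57BL/6N mice that began their diets at 4 weeks of age, on either a high-fat diet (HFD, Research Diets D12492) or a chow diet (CD, LabDiet). Groups of 4 mice per diet were killed after 4, 8, 12, 16, 20 or 24 weeks, and each mouse gave 1 islet library and 1 liver library, 96 in all. No genotype or drug separated the groups, and the diets also differed in make-up beyond their fat. Week on diet, age and any batch of mice or sequencing that went with a week cannot be told apart. Islets were collagenase-digested and hand-picked, and liver was taken as whole tissue, so each value is a mean over all cells present, and fewer cells of a type cannot be told apart from less RNA per cell.

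Chemokines bind receptors on the leukocytes they attract. The CC chemokines Ccl2 and Ccl7 act mainly on Ccr2 of monocytes, and Ccl3, Ccl4 and Ccl5 attract macrophages and T cells, Ccl3 and Ccl5 through Ccr1 among others. Among the CXC chemokines, Cxcl1 and Cxcl2 attract neutrophils through Cxcr2, whereas Cxcl9 and Cxcl10 are induced by interferon-γ and attract T and NK cells through Cxcr3. In the liver these proteins come from Kupffer cells, recruited macrophages, endothelial and stellate cells and, for some of them, hepatocytes.

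The CC members lie on chromosome 11 and the CXC members on chromosome 5 of the mouse genome (GRCm38). Ccl2 (chr11:82035577-82037452, plus strand) and Ccl7 (chr11:82045712-82047525, plus strand) are neighbours. Ccl5 lies at chr11:83525778-83530518 on the minus strand. Ccl3 (chr11:83647843-83649378, minus strand) and Ccl4 (chr11:83648624-83664683, plus strand) have gene models that overlap by 755 bases on opposite strands. Whether the counting used strand is not given in the sources used here, so reads in that overlap could be credited to either gene and values of both are uncertain to that extent. Cxcl1 (chr5:90891245-90893121) and Cxcl2 (chr5:90903899-90905938) sit side by side on the plus strand, and Cxcl9 (chr5:92321331-92328079) and Cxcl10 (chr5:92346638-92348889) on the minus strand.

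The promoters of the CXC members are shown because these genes are known for their inducers, NF-κB signalling for Cxcl1 and Cxcl2 and interferon-γ for Cxcl9 and Cxcl10. Each line gives the 250 bases before the start of the gene, 5′ to 3′ on the strand of the gene, from RefSeq (GRCm38.p6): chr5:90890995-90891244 for Cxcl1, chr5:90903649-90903898 for Cxcl2, chr5:92328080-92328329 for Cxcl9 and chr5:92348890-92349139 for Cxcl10. Capitals mark matches on either strand to the NF-κB consensus or to GAAANNGAA, a core of the interferon-stimulated response element.
Cxcl1: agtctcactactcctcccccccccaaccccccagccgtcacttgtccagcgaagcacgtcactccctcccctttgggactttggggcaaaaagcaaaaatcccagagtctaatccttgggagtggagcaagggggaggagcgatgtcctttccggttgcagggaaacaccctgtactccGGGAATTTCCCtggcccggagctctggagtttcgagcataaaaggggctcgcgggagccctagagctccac
Cxcl2: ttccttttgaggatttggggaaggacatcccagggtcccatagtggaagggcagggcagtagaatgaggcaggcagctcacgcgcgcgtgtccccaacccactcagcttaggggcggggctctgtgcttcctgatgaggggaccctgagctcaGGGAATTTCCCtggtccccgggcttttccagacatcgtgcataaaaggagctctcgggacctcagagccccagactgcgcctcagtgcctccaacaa
Cxcl9: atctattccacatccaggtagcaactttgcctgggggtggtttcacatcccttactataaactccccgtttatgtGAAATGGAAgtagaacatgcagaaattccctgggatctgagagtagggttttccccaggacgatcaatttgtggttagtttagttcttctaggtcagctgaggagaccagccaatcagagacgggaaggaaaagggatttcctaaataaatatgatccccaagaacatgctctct
Cxcl10: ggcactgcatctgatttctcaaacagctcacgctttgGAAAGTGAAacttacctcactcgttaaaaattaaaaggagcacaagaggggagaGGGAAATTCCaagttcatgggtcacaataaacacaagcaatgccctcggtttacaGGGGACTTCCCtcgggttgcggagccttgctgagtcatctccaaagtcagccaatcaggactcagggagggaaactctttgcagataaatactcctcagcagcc
The NF-κB consensus matched once in Cxcl1, from 71 bases before the start, and once in Cxcl2, from 97 bases before it, on both strands with a shift of 1 base in each gene. In Cxcl10 it matched from 159 bases before the start and again nearer to it, there with overlapping matches that begin 1 base apart, and in Cxcl9 no match was in the window. GAAANNGAA was found from 175 bases before the start of Cxcl9 and once, farther upstream than either NF-κB match, in Cxcl10. It was also in the window of Ccl3, not shown, from 39 bases before the start on the opposite strand. Among all 32851 RefSeq windows of 250 bases, 7.25% held the NF-κB consensus and 7.13% held GAAANNGAA. TTCNNNGAA, the core of the STAT binding element, was in 7.02% of windows and in none of the 5 member windows on hand, which include that of Ccl3. A match is a string of letters and not a measured binding site.

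Values were FPKM, fragments per kilobase of transcript scaled to the mapped fragments of the library, so that levels can be compared between genes per length. Read counts were not among the values used, so the depth behind single low values is unknown. Differences are HFD minus CD on the scale log2(FPKM + 1), which understates the change of genes under 1 FPKM, and a gene was called when its limma p-value, adjusted over all genes tested (Benjamini-Hochberg), was under 0.05. Hepatocyte markers summed to 32958 FPKM or more in every liver and to at most 1061 FPKM in islets. The islet sum was mostly Ttr, which averaged 819 FPKM in CD and 591 FPKM in HFD islets, where Alb averaged 2.70 and 5.70 FPKM. Insulin transcripts made up 53.7 to 75.1% of the FPKM sum of islet libraries. Some libraries stood apart. The livers of CD306 and CD407 held beta-cell markers at 3765 and 2615 FPKM, beside a median of 124 FPKM in CD liver. That median is largely Slc2a2, a gene of the list that averaged 88.9 ± 18.3 FPKM in CD liver (SD, n = 24). The livers of HFD416 (week 16), HFD516 and HFD517 (both week 20) together held the highest value of each of the 9 chemokines, and results that rest on them are given with and without them. Their monocyte and macrophage markers summed to 113.6, 143 and 238 FPKM, beside a median of 74.7 FPKM in HFD liver. Only HFD517 stood apart on these markers. The sums of HFD616 (145 FPKM), HFD315 (127 FPKM) and HFD511 (119 FPKM) were above that of HFD416, and that of HFD616 was also above that of HFD516.

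Ordered by median over the 48 livers, Cxcl1 was the most abundant member at 13.2 FPKM, followed by Cxcl10 at 2.37, Cxcl9 at 2.24, Ccl5 at 1.45 and Ccl2 at 0.585 FPKM. Ccl4 (median 0.215 FPKM), Cxcl2 (0.19 FPKM), Ccl3 (0.125 FPKM) and Ccl7 (0.085 FPKM) came last. The ranges of all neighbours in this order overlapped, that of Cxcl1 (2.22 to 104.55 FPKM) with that of Cxcl10 (0.64 to 17.15 FPKM) as well. No member was under 1 FPKM in every liver. Ccl3 reached 1 FPKM in 1 of 48 livers, Ccl7 and Cxcl2 in 2, Ccl4 in 3, Ccl2 in 20, Ccl5 in 37, Cxcl9 in 43, Cxcl10 in 46 and Cxcl1 in all 48. For Ccl2 the 20 livers at or above 1 FPKM were 19 of HFD mice and 1 of a CD mouse.

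In islets the order was different and the levels were low. Ccl5 had the highest median, 0.785 FPKM, then Ccl4 at 0.295, Cxcl10 at 0.265 and Ccl3 at 0.22 FPKM. Ccl2 (0.125 FPKM), Cxcl1 (0.085 FPKM), Cxcl2 (0.04 FPKM), Cxcl9 (0.03 FPKM) and Ccl7 (listed at 0) followed. Ccl2, Ccl7, Cxcl1, Cxcl2 and Cxcl9 were under 1 FPKM in all 48 islet libraries, with highest values of 0.91, 0.19, 0.5, 0.65 and 0.4 FPKM. Ccl3 and Ccl4 each reached 1 FPKM in 1 library, Cxcl10 in 4 and Ccl5 in 12. Every member's median over islets was thus under 1 FPKM, and the neighbours in the order overlapped in range.

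**Figure D1:**
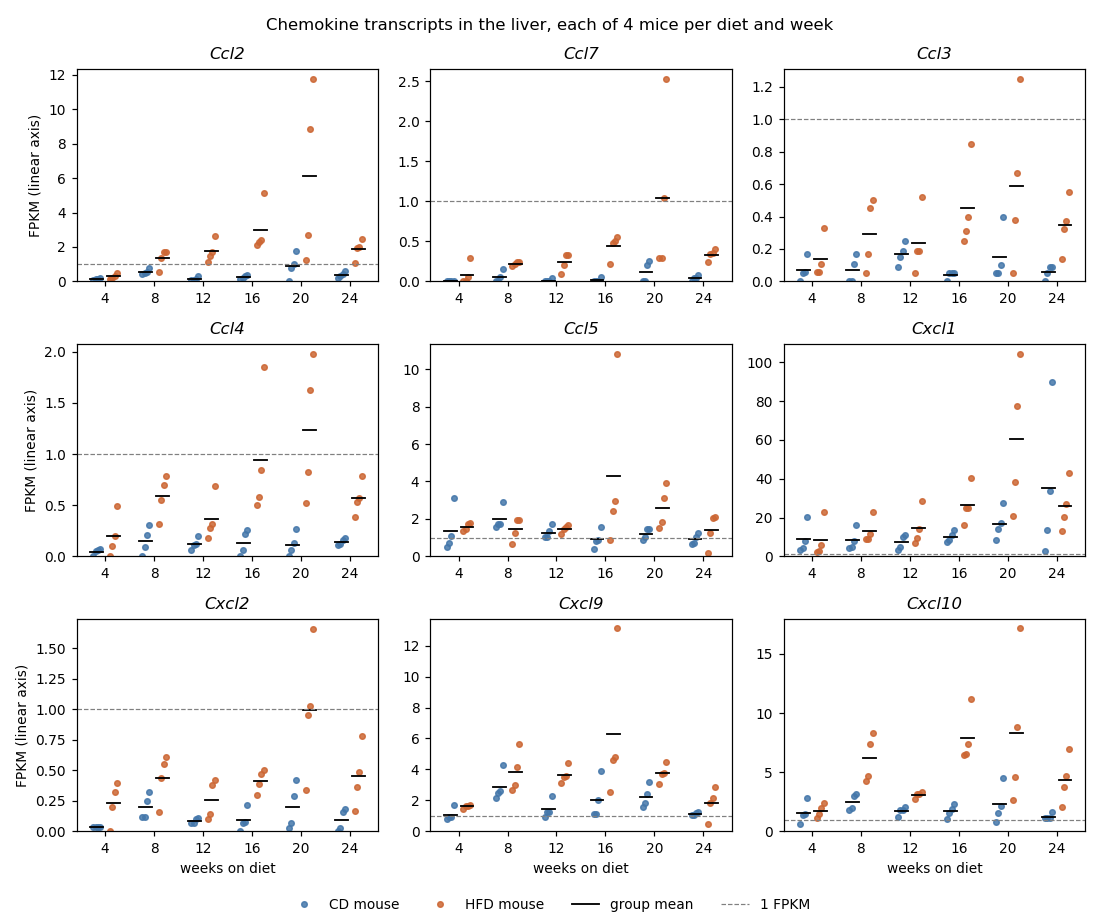
FPKM (linear axis from 0, own scale per panel) of the 9 chemokine genes in the liver by weeks on diet, with 1 point per mouse (blue CD, orange HFD), black bars for the mean of 4 mice and a dashed line at 1 FPKM. From week 8 on the HFD points of Ccl2, Ccl4, Ccl7 and Cxcl10 sit mostly above the CD points, and the highest point of every panel is the liver of HFD416, HFD516 or HFD517.

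Ccl2, the main attractant of monocytes, was on average 0.402 ± 0.385 FPKM in CD liver and 2.39 ± 2.70 FPKM in HFD liver (SD, n = 24 each), a ratio of 5.96. At week 4 the CD livers held 0.06, 0.11, 0.16 and 0.22 FPKM and the HFD livers 0.11, 0.22, 0.33 and 0.5 FPKM, so that both diets overlapped. At week 8 CD livers lay between 0.45 and 0.77 FPKM and HFD livers at 0.56, 1.34, 1.73 and 1.73 FPKM. The values then separated by diet. At week 12 the CD livers held 0.09, 0.1, 0.15 and 0.29 FPKM and the HFD livers 1.14, 1.46, 1.71 and 2.66 FPKM. At week 16 CD livers were at 0.15, 0.2, 0.31 and 0.37 FPKM, and HFD livers at 2.14, 2.27, 2.38 and 5.14 FPKM. All 4 HFD livers were above all 4 CD livers at both weeks, with ratios of the means of 11.1 and 11.6. Week 20 spread widest, with 0.05, 0.77, 0.99 and 1.77 FPKM in CD and 1.26, 2.67, 8.86 and 11.78 FPKM in HFD, and the lowest HFD liver was below the highest CD liver. At week 24 the CD livers held 0.22, 0.34, 0.4 and 0.61 FPKM and the HFD livers 1.05, 1.93, 1.98 and 2.49 FPKM, again without overlap. The log2 difference passed the test at week 12 (1.22, adjusted p = 0.00464), week 16 (1.61, adjusted p = 0.00185) and week 24 (1.02, adjusted p = 0.0212). At week 20 it was 1.67 with an adjusted p of 0.213, and at weeks 4 and 8 fewer than 4 livers reached 1 FPKM, so that Ccl2 was not tested. At weeks 12, 16 and 24 no CD liver reached 1 FPKM, and Ccl2 passed the filter only through the HFD livers, where it was high. In the fit without a filter, which does not depend on this, the adjusted p were 0.0125 after 12 weeks, 0.00400 after 16 and 0.0440 after 24, where 3.64%, 4.66% and 0.352% of genes were called higher in HFD. The week 24 call was lost without any 1 of CD601, CD605, CD608, HFD616 and HFD617 (adjusted p 0.0555 to 0.0890).

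Ccl7, a second ligand of Ccr2 encoded beside Ccl2, was listed at 0 in 15 of 24 CD livers and in 2 of 24 HFD livers. Its mean was 0.0383 ± 0.0708 FPKM in CD and 0.393 ± 0.502 FPKM in HFD liver (SD, n = 24 each). At week 16 the CD livers held 0, 0, 0 and 0.05 FPKM and the HFD livers 0.22, 0.48, 0.5 and 0.55 FPKM. At week 20 they held 0, 0, 0.21 and 0.26 FPKM against 0.29, 0.29, 1.04 and 2.53 FPKM. The HFD values lay above all CD values at 5 of 6 weeks, every week but week 4.

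Ccl3 and Ccl4, the macrophage inflammatory proteins, were low in the liver of both diets. Ccl4 averaged 0.119 ± 0.0905 FPKM in CD and 0.650 ± 0.509 FPKM in HFD liver (SD, n = 24 each), a ratio of 5.48. Its CD livers never passed 0.31 FPKM. At week 20 the CD livers held 0, 0.06, 0.13 and 0.27 FPKM and the HFD livers 0.52, 0.82, 1.63 and 1.98 FPKM, and at week 24 the CD livers held 0.11, 0.12, 0.16 and 0.18 FPKM and the HFD livers 0.38, 0.53, 0.57 and 0.79 FPKM. All HFD livers were above all CD livers at weeks 8, 16, 20 and 24. Ccl3 averaged 0.0925 ± 0.0935 FPKM in CD and 0.3425 ± 0.288 FPKM in HFD liver (SD, n = 24 each), and did not overlap at weeks 16 and 24. The part of reads from the shared 755 bases in both genes was not tested.

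Ccl5, made by T and NK cells and by macrophages, differed least in ratio, with 1.28 ± 0.667 FPKM in CD and 2.13 ± 2.02 FPKM in HFD liver (SD, n = 24 each). At week 8 its mean was higher in CD, 1.99 against 1.45 FPKM, and the values overlapped. At week 16 the HFD livers held 0.89, 2.44, 2.97 and 10.83 FPKM, where the CD livers held 0.37, 0.84, 0.9 and 1.56 FPKM. At week 20 they held 1.49, 1.86, 3.1 and 3.94 FPKM in HFD and 0.89, 1.05, 1.44 and 1.46 FPKM in CD, the only week without overlap. No single week passed the test for Ccl5, with the lowest adjusted p at week 20 (0.141).

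Cxcl1, a neutrophil attractant, had the highest mean of the members in every group of livers. It averaged 14.4 ± 17.9 FPKM in CD and 24.8 ± 23.7 FPKM in HFD liver (SD, n = 24 each). At week 16 the CD livers held 7.49, 8.21, 11.25 and 13.72 FPKM and the HFD livers 16.25, 24.68, 25.06 and 40.25 FPKM, a log2 difference of 1.27 (adjusted p = 0.0271). This call was lost without any 1 of CD401, CD405, CD407 and HFD418 (adjusted p 0.0534 to 0.0817). At week 20 the CD livers held 8.28, 14.15, 17.07 and 27.48 FPKM and the HFD livers 21.05, 38.21, 77.62 and 104.55 FPKM, with a log2 difference of 1.66 that did not pass (adjusted p = 0.182). Week 24 went the other way in the means, with 2.85, 13.5, 33.87 and 90.0 FPKM in CD and 12.98, 20.49, 27.15 and 42.72 FPKM in HFD. The HFD range there lay within the CD range. Cxcl2, its neighbour and the other main Cxcr2 ligand, averaged 0.120 ± 0.109 FPKM in CD and 0.465 ± 0.356 FPKM in HFD liver (SD, n = 24 each). Its values did not overlap at week 16, with 0, 0.07, 0.08 and 0.22 FPKM in CD and 0.3, 0.39, 0.47 and 0.5 FPKM in HFD.

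Cxcl10 showed the most regular separation among the interferon-inducible members. It averaged 1.84 ± 0.867 FPKM in CD and 5.27 ± 3.63 FPKM in HFD liver (SD, n = 24 each), a ratio of 2.87. At week 4 the CD livers held 0.64, 1.37, 1.49 and 2.83 FPKM and the HFD livers 1.13, 1.46, 2.01 and 2.43 FPKM, inside the CD range. At week 8 the CD livers held 1.83, 2.0, 2.98 and 3.15 FPKM and the HFD livers 4.26, 4.72, 7.42 and 8.32 FPKM. At week 12 CD livers were at 1.18, 1.81, 1.84 and 2.08 FPKM and HFD livers at 2.76, 3.12, 3.2 and 3.29 FPKM. Both weeks were free of overlap. At week 16 the CD livers held 1.05, 1.57, 1.87 and 2.31 FPKM and the HFD livers 6.47, 6.54, 7.38 and 11.18 FPKM. At week 20 they held 0.83, 1.59, 2.16 and 4.54 FPKM against 2.69, 4.62, 8.79 and 17.15 FPKM, and at week 24 the CD livers held 1.1, 1.11, 1.17 and 1.61 FPKM and the HFD livers 2.08, 3.72, 4.71 and 6.95 FPKM. Only weeks 4 and 20 overlapped. The log2 difference passed at week 8 (1.02, adjusted p = 0.0250), week 12 (0.60, adjusted p = 0.0169) and week 16 (1.71, adjusted p = 0.000948), and was 1.18 with an adjusted p of 0.0646 at week 24. The week 8 call was lost without any 1 of CD205, CD207, HFD212 and HFD213 (adjusted p up to 0.0796), and the week 12 call without HFD318 (adjusted p = 0.0518).

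Cxcl9 averaged 1.81 ± 0.963 FPKM in CD and 3.50 ± 2.40 FPKM in HFD liver (SD, n = 24 each). At week 12 the CD livers held 0.96, 1.23, 1.24 and 2.31 FPKM and the HFD livers 3.13, 3.49, 3.57 and 4.41 FPKM, a log2 difference of 0.96 (adjusted p = 0.0116) that held without each library in turn. At week 16 the HFD livers held 2.57, 4.61, 4.78 and 13.11 FPKM and overlapped the CD livers at 1.12, 1.13, 2.01 and 3.92 FPKM. The liver of HFD416 gave the highest Cxcl9 and Ccl5 values of the series. In that liver the 12 T and NK cell markers summed to 7.14 FPKM, the highest of 48 livers, beside a median of 2.65 FPKM in HFD liver, and the 14 genes of the interferon-γ pathway summed to 176 FPKM beside 107 FPKM. The part of T and NK cells in these values was not tested.

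**Figure D2:**
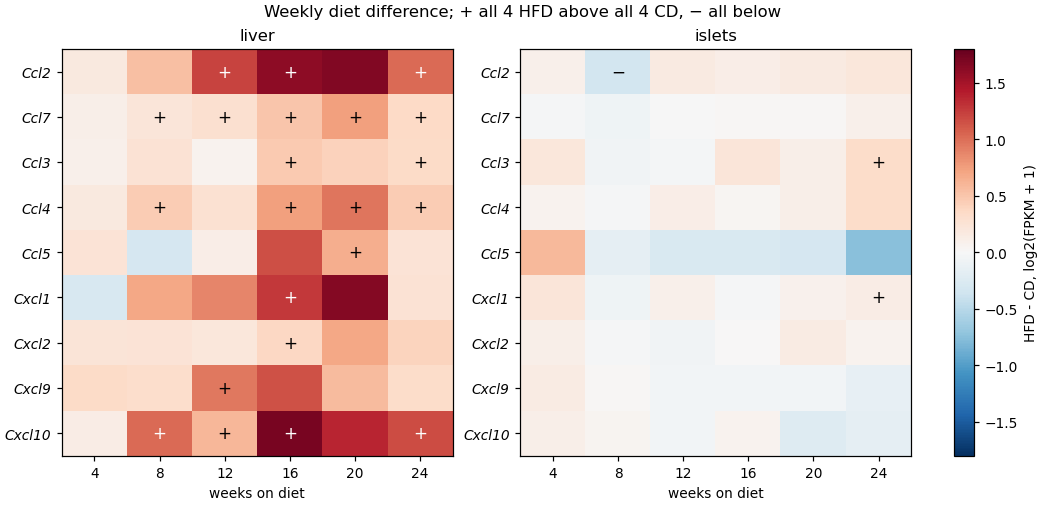
Log2 difference (HFD minus CD, log2(FPKM + 1), colour) of each chemokine gene (rows) at each week (columns) in liver and islets, with + where all 4 HFD values lie above all 4 CD values and a minus where all lie below. The liver holds 22 plus signs, none at week 4 and 7 at week 16, and the islets hold 2, with 1 minus for Ccl2 at week 8.

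Week by week, 51 of the 54 member and week pairs in the liver had the higher mean in HFD, the exceptions being Ccl5 at week 8 and Cxcl1 at weeks 4 and 24. In 22 of the 54 pairs all 4 HFD livers were above all 4 CD livers and in none were they all below; over all genes with a value above 0 that share was 7.79% of gene and week pairs. Week 4 had 0 such members, week 8 had 3, week 12 had 4, week 16 had 7, week 20 had 3 and week 24 had 5. With the filter, which Ccl2 passed only through HFD livers, no member was called at week 4, Cxcl10 at week 8, Ccl2, Cxcl9 and Cxcl10 at week 12, Ccl2, Cxcl1 and Cxcl10 at week 16, none at week 20 and Ccl2 at week 24. Of all genes tested, 0.0405% were called higher in HFD after 4 weeks, 6.17% after 8, 9.42% after 12, 6.74% after 16, 1.73% after 20 and 0.65% after 24 weeks. The 0 calls at week 4 went with 1 of 4 tested members at an unadjusted p under 0.05 in limma, and the 0 calls at week 20 with 5 of 5.

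Averaged over the 6 weeks in 1 model of all 48 livers and without a filter on low values, all 9 members were called higher in HFD, where 25.8% of all 18453 genes tested were. The log2 differences were 1.04 for Ccl2, 1.00 for Cxcl10, 0.75 for Cxcl1, 0.61 for Cxcl9, 0.51 for Ccl4, 0.37 for Ccl7, 0.36 for Cxcl2 and Ccl5, and 0.27 for Ccl3, with a median of 0.51 against 0.02 over all genes. Adjusted p ran from 4.59e-08 for Ccl2 to 0.0417 for Ccl5. With the filter, which Ccl2 passed through 19 HFD livers and 1 CD liver, the 5 members tested were called, where 35.8% of genes were called higher and 6.78% lower. Their adjusted p were 2.03e-08 for Ccl2, 1.01e-07 for Cxcl10, 3.42e-05 for Cxcl9, 0.0259 for Cxcl1 and 0.0303 for Ccl5. Leaving out together the livers of HFD416, HFD516 and HFD517, which were picked with these values in view, Ccl2 (0.84), Cxcl10 (0.85) and Cxcl9 (0.53) were still called, and Cxcl1 (0.66, adjusted p = 0.0751) and Ccl5 (0.27, adjusted p = 0.0605) were not. Without the liver of CD306 all 5 were called. With median ratio scaling between libraries, 45.1% of all calls in the liver were higher in place of 84.1%, and Cxcl1 (0.64, adjusted p = 0.0595) and Ccl5 (0.29, adjusted p = 0.0756) were no longer called.

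**Figure D3:**
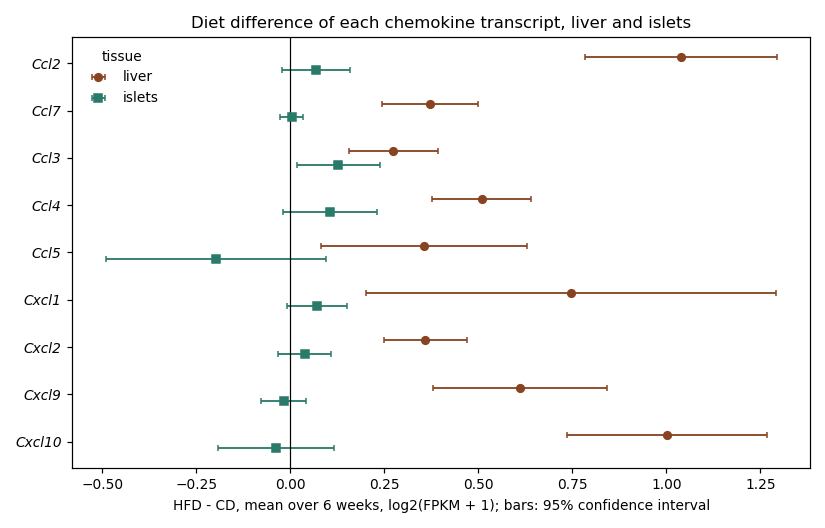
Mean difference HFD minus CD over 6 weeks on the log2(FPKM + 1) scale for each chemokine gene, in liver (brown circles) and islets (green squares), with 95% confidence intervals from the limma models without a filter. All 9 liver intervals lie above 0, from 0.27 for Ccl3 to 1.04 for Ccl2, and 8 of the 9 islet intervals include 0, the exception being Ccl3, which did not pass the adjusted test.

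The difference between late (weeks 16, 20 and 24) and early weeks (4, 8 and 12) was tested as a contrast of its own. It was 0.84 for Cxcl10, 0.79 for Ccl2, 0.67 for Ccl5, 0.64 for Cxcl1 and 0.15 for Cxcl9 in the liver. None of these 5 was called by limma, where 0.175% of all genes were, although 3 had an unadjusted p under 0.05. Without HFD518 alone, Ccl2 passed (0.93, adjusted p = 0.0248). Without the filter none of the 9 was called and 7 had an unadjusted p under 0.05. Without HFD416, HFD516 and HFD517 the contrast was 0.38 for Ccl2 and 0.52 for Cxcl10. These are HFD livers of weeks 16 and 20 picked with the chemokine values in view. A lower contrast follows from that choice, so no test is given for it.

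In islets the same comparison gave small differences. Averaged over the weeks, Ccl5 was 1.06 ± 0.862 FPKM in CD and 0.862 ± 1.07 FPKM in HFD islets, and Cxcl10 0.403 ± 0.330 and 0.368 ± 0.331 FPKM (SD, n = 24 each). Their log2 differences were -0.20 (95% interval -0.50 to 0.10, adjusted p = 0.297) and -0.04 (-0.19 to 0.11, adjusted p = 0.721). These were the only members that passed the filter in islets, and limma called none and found none at an unadjusted p under 0.05, where 38.6% of genes tested were called. Without the filter, 0 of 9 members were called, 1 had an unadjusted p under 0.05, and 30.8% of all genes were called. That member was Ccl3, with 0.256 ± 0.248 FPKM in CD and 0.376 ± 0.282 FPKM in HFD islets (SD, n = 24 each) and a log2 difference of 0.13 (adjusted p = 0.0722). In 2 of 54 pairs all HFD islets were above all CD islets, Ccl3 and Cxcl1 at week 24, where 4.16% of gene and week pairs were over all genes. Cxcl1 there was 0.04, 0.04, 0.05 and 0.07 FPKM in CD and 0.12, 0.12, 0.14 and 0.25 FPKM in HFD. Ccl3 at that week was 0.1, 0.16, 0.22 and 0.26 FPKM in CD and 0.29, 0.32, 0.46 and 0.97 FPKM in HFD. Ccl2 at week 8 was the only pair the other way, with 0.15, 0.15, 0.22 and 0.91 FPKM in CD and 0, 0.05, 0.06 and 0.11 FPKM in HFD. The late minus early contrast called neither of the 2 members tested, with none at an unadjusted p under 0.05, where 3.16% of genes were called.

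Islet values depend on insulin, since its transcripts take up most of the FPKM sum. When the sum was taken without Ins1 and Ins2, Ccl3 (0.33, adjusted p = 0.00704) and Ccl4 (0.29, adjusted p = 0.0309) were called higher in HFD islets. Ccl2 (0.21, adjusted p = 0.0506), Ccl5 and Cxcl10 were tested by limma and not called. With this scaling 8109 of all 14106 genes tested were called higher, so such a call was common. Among all calls, the share that were higher went from 43.1 to 86.9%. The median of all genes moved from -0.01 to 0.15 with this scaling, so the differences of Ccl3 and Ccl4 relative to it were smaller.

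**Figure D4:**
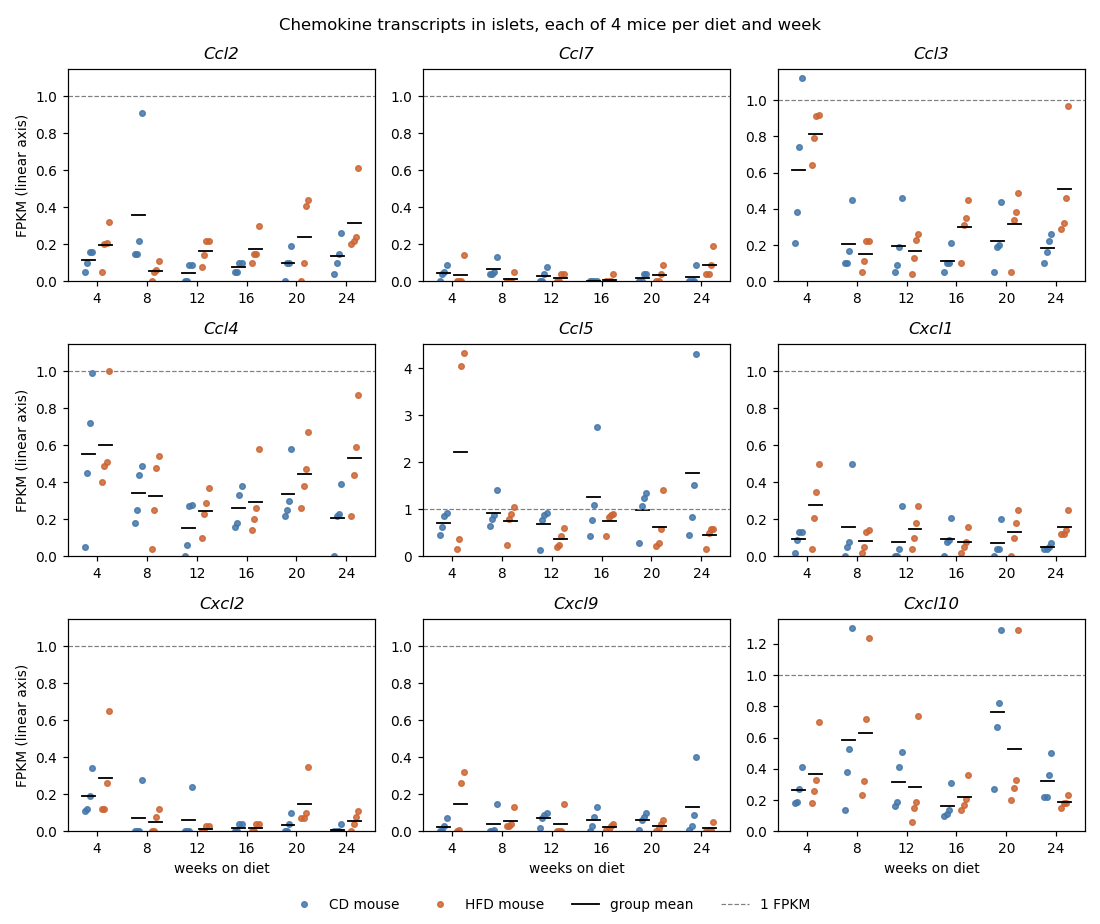
FPKM (linear axis from 0, own scale per panel) of the 9 chemokine genes in islets by weeks on diet, with 1 point per mouse (blue CD, orange HFD), black bars for the mean of 4 mice and a dashed line at 1 FPKM. Ccl2, Ccl7, Cxcl1, Cxcl2 and Cxcl9 stay under the dashed line, and 4 islet libraries give the Ccl5 values from 2.75 to 4.31 FPKM.

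The islet Ccl5 values above 2 FPKM came from 4 libraries. HFD113 and HFD118 held 4.04 and 4.31 FPKM at week 4, CD407 held 2.75 FPKM at week 16 and CD608 held 4.29 FPKM at week 24, while the other 2 HFD libraries of week 4 held 0.16 and 0.37 FPKM. The 12 T and NK cell markers summed to 6.27, 9.27, 6.20 and 9.64 FPKM in these libraries, beside medians of 0.97 FPKM in CD and 0.805 FPKM in HFD islets. The 7 B cell markers summed to 23.1, 10.5, 36.8 and 40.7 FPKM beside medians of 11.6 and 7.79 FPKM. The part of lymphocytes among the picked islets was not tested. The markers and Ccl5 did not always go together, since CD606 held T and NK cell markers at 8.97 FPKM and the highest B cell sum, 44.1 FPKM, with Ccl5 at 1.51 FPKM, and CD505 held 5.40 and 18.9 FPKM with Ccl5 at 1.25 FPKM. Without the 4 libraries the Ccl5 difference over the weeks was -0.26 in place of -0.20, and as they were picked for their Ccl5 values no test is given for it.

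In CD animals alone, levels across the 6 weeks were compared by an F test. In CD liver 1 of the 5 tested members was called, where 55.0% of genes were. This was Cxcl9 (adjusted p = 0.0323). Its CD livers held 0.8, 0.9, 0.92 and 1.68 FPKM after 4 weeks and 2.13, 2.5, 2.63 and 4.31 FPKM after 8. After 24 weeks they held 1.04, 1.07, 1.19 and 1.27 FPKM. It was lost without CD101, CD103 or CD207 (adjusted p 0.0542, 0.0612 and 0.0957). Cxcl1, not called over all mice (adjusted p = 0.223), was called without CD606 (adjusted p = 0.0236). Ccl2 was not called (adjusted p = 0.282). Leaving out HFD416, HFD516 and HFD517 removed no CD liver and changed only the shared spread. As these livers were picked with the chemokine values in view, that fit gives no test for Ccl2. In CD islets neither Ccl5 nor Cxcl10 was called, where 77.5% of genes were. Cxcl10 had an adjusted p of 0.056 and was called without CD205, CD502, HFD213 or HFD315 (adjusted p 0.0154 to 0.0488), HFD libraries entering through the shared estimate of the spread. Without the filter Ccl3 was called (adjusted p = 0.0216), where 55.7% of genes were. Its CD islet values were 0.21, 0.38, 0.74 and 1.12 FPKM at week 4 and 0.05, 0.1, 0.1 and 0.21 FPKM at week 16. The 10 immediate early genes, which respond quickly to stress and to handling of tissue, summed to 285 to 376 FPKM in CD islets of week 4 and to 35.5 to 163 FPKM in those of the other weeks, and their part in this result was not tested.

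Between the tissues, 5 of the 6 members tested were lower in islets than in liver of the same mice, where 30.2% of genes were. Of these, Cxcl1, Cxcl9 and Ccl2 reached 1 FPKM in no islet library. They passed the filter only through liver, where they were high, and their calls are read from the fit without a filter below. The log2 differences were -3.68 for Cxcl1, -1.65 for Cxcl9, -1.51 for Cxcl10, -0.76 for Ccl2 and -0.46 for Ccl5, while Ccl4 was level (0.01, 95% interval -0.08 to 0.10). Without the filter 7 of 9 were lower, Cxcl1, Cxcl9 and Ccl2 among them, where 24.2% of genes were. Ccl3 was higher in islets in that fit (0.11, adjusted p = 0.0105). The order of Ccl5 and Ccl4 rested on scaling. With insulin left out of the sum, Ccl5 was higher in islets (0.40, adjusted p = 0.00306) and so was Ccl4 (0.58, adjusted p = 3.69e-12), whereas with median ratio scaling Ccl4 was lower (-0.14, adjusted p = 0.00197). Cxcl1, Cxcl9, Cxcl10 and Ccl2 were lower in islets under each of these scalings. The median of all genes in this contrast was 0.59 as deposited, 0.05 with median ratio scaling and 1.796 with insulin left out.

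The diet difference itself was compared between the tissues of the same mice. It was lower in islets for each of the 6 members tested, where 35.5% of genes were called in that direction. Of these, Ccl4 passed the filter only through HFD libraries, 3 livers and 1 islet library, and its call is read from the fit without a filter below. The difference of the differences was -1.04 for Cxcl10 (adjusted p = 6.54e-08), -0.97 for Ccl2 (1.23e-08), -0.63 for Cxcl9 (1.19e-05), -0.40 for Ccl4 (0.000182), -0.55 for Ccl5 (0.0209) and -0.67 for Cxcl1 (0.0424). Without the filter 8 of 9 were called, Ccl4 among them (adjusted p = 0.000245) and Ccl3 not, where 29.8% of genes were. Cxcl1 lost its call without any 1 of 22 mice (adjusted p up to 0.0740) and with median ratio scaling (0.0881). With a pseudocount of 0.1 FPKM its difference was -0.40 and not called by limma (adjusted p = 0.375), while the other members tested kept their calls. Its ratio of HFD to CD means was 1.61 in islets and 1.72 in liver, so its call rested on the log2(FPKM + 1) scale. With insulin left out of the sum Cxcl1 (adjusted p = 0.141), Ccl5 (0.0665) and Ccl4 (0.213) lost their calls, while Cxcl10, Cxcl9 and Ccl2 kept theirs. Leaving out HFD416 or HFD517 left 4 members called, Ccl4 being then under the filter.

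The members did not all vary together. Over the 48 livers, centred within their diet and week groups, the 36 pairs of members had Pearson r from 0.00 to 0.79 with a median of 0.36, on log2(FPKM + 1). Points share their libraries and the low members share the rounding of small values, so r is a description. Ccl5 and Cxcl9 were most alike (0.79), followed by Ccl3 and Ccl4 (0.76), Ccl2 and Ccl7 (0.69), Ccl2 and Cxcl10 (0.65) and Ccl3 and Cxcl10 (0.64). Cxcl1 stood apart, with 0.35 to Cxcl2 and 0.24 or less to every other member. In islets the highest of the 36 values was again that of Ccl5 and Cxcl9 (0.79), and that of Cxcl1 and Cxcl2 was 0.62.

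**Figure D5:**
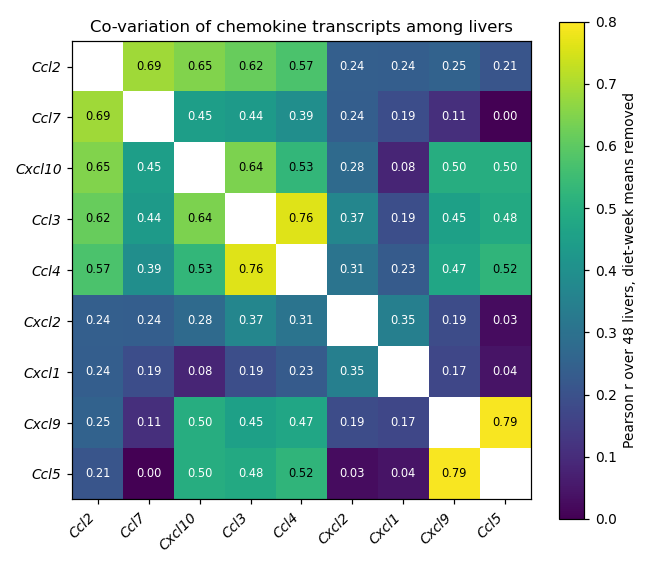
Pearson r between each pair of chemokine genes over 48 livers on log2(FPKM + 1), centred within diet and week groups (colour and printed value). Ccl2, Ccl7, Cxcl10, Ccl3 and Ccl4 have r from 0.39 to 0.76 with each other, Ccl5 and Cxcl9 pair at 0.79, and Cxcl1 has low values with all others. Ccl5 and Cxcl9 have r from 0.45 to 0.52 with Ccl3, Ccl4 and Cxcl10, so these sets are not separate.

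Among 9954 other genes with a median of at least 1 FPKM in liver, the genes most like each member over the same 48 livers were taken. For Ccl5 they were Cxcl9 (r = 0.79), Cd74 (0.78) and H2-Ab1 (0.78), the latter encoding parts of antigen presentation by MHC class II. For Cxcl9 they were Tgtp1 (0.82), an interferon-inducible GTPase, Ccl5 (0.79) and Gbp2 (0.76), a guanylate-binding protein. Cxcl1 went with Stat3 (0.75), Junb (0.75) and Lrig1 (0.73), Stat3 and Junb being transcription factors of acute signalling. Cxcl10 had weaker likenesses, with Galnt4 (0.56), Adgrv1 (0.54) and Bcl10 (0.53). No member had a median of 1 FPKM in islets, so no likeness was taken there.

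Among receptors of these ligands, Ccr2 and Ackr2 were called higher in HFD liver over the 6 weeks, where 35.8% of all genes were. Ccr2, the receptor of Ccl2 and Ccl7, averaged 0.220 ± 0.163 FPKM in CD and 0.744 ± 0.619 FPKM in HFD (SD, n = 24 each; log2 difference 0.46). It reached 1 FPKM in 0 CD and 5 HFD livers. Ccr2 thus passed the filter only through the livers where it was high, and its call is no test. Ackr2 reached 1 FPKM in 1 CD and 8 HFD livers. The decoy receptor Ackr2, which clears CC chemokines, averaged 0.628 ± 0.228 FPKM in CD and 0.876 ± 0.325 FPKM in HFD liver (SD, n = 24 each; 0.20, adjusted p = 0.0143). The neutrophil receptor Cxcr2 had means of 0.188 FPKM in CD and 0.216 FPKM in HFD liver and the T cell receptor for Cxcl9 and Cxcl10, Cxcr3, 0.130 and 0.166 FPKM, with no liver at 1 FPKM. Ccr1 had means of 0.0392 and 0.163 FPKM, Ackr1 0.453 and 0.654 FPKM, Cxcr1 0.0475 and 0.0737 FPKM and Ccr3 0.0204 and 0.0312 FPKM, all under the filter. In islets the decoy receptor Ackr1 was lower in HFD, 0.551 ± 0.326 against 0.213 ± 0.248 FPKM (SD, n = 24 each; -0.35, adjusted p = 0.000225). Ackr1 is known from venular endothelium and red cells. Ccr2 was under the filter in islets, at 0.590 FPKM in CD and 0.566 FPKM in HFD.

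Of 27 other chemokine genes, 14 were tested in liver, 4 were higher in HFD, 4 lower and 6 not called. Over all genes tested in liver, 35.8% were called higher and 6.78% lower. The called genes of this list that differed most were Ccl21a (-0.41), Ccl6 (0.41), Cxcl16 (0.38), Cxcl13 (-0.33) and Ccl19 (0.24). Cxcl12, the most abundant at 134 ± 27.0 FPKM in CD liver, was 114.4 ± 19.0 FPKM in HFD liver (SD, n = 24 each; -0.22, adjusted p = 0.0166). Of the cytokines that induce chemokines, Il1b (0.40), Il1a (0.23) and Csf1 (0.23) were higher and Il18 lower (-0.24) in HFD liver. Tnf averaged 0.0650 FPKM in CD and 0.147 FPKM in HFD liver, Ifng 0.0175 and 0.0150 FPKM and Il6 0.0138 and 0.0233 FPKM, and these 3, named after their values were seen, stayed under 1 FPKM in every library. In islets Il1b was higher in HFD, 0.698 ± 0.383 against 1.41 ± 0.981 FPKM (SD, n = 24 each; 0.44, adjusted p = 0.00560), and Il18 (-0.25) and Csf1 (-0.26) were lower.

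The 17 NF-κB pathway genes included 9 of 15 tested that were higher in HFD liver and none lower, where 35.8% of all genes were higher, with a median log2 difference of 0.26 beside 0.08 over all genes. Vcam1 (0.76), an endothelial adhesion molecule, Tlr2 (0.74), a receptor for microbial lipids, and Nfkb2 (0.47) differed most. In islets 1 of 15 was called, Chuk (-0.11), with a median of -0.01. Of the interferon-γ pathway genes 7 of 11 tested were higher in liver, beside the same 35.8%, Gbp2 (0.58) among them. In islets 2 of 13 were higher, Ifngr1 (0.16) and Ifngr2 (0.14), and 4 lower, Gbp4 (-0.18) the most.

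Markers of the cells that make or follow chemokines were read against the 35.8% of all genes called higher in HFD liver. The shares of the Kupffer cell, neutrophil and immediate early lists given here were near or under it or rest on 4 or 5 genes. Of 8 tested monocyte and macrophage genes 7 were higher in HFD, with Cd68 at 4.44 ± 2.18 FPKM in CD and 9.57 ± 5.18 FPKM in HFD (SD, n = 24 each; 0.93, adjusted p = 2.27e-07), and Cd163 was lower (-0.27). The 10 markers summed to 26.2 to 88.4 FPKM in CD livers and to 34.3 to 238 FPKM in HFD livers, with the highest sum in HFD517. Of the 5 Kupffer cell markers 2 were higher, Cd5l (0.58) and Vsig4 (0.26), and the sums overlapped, 31.4 to 112.9 FPKM in CD and 35.3 to 151 FPKM in HFD. Of 4 tested neutrophil genes Csf3r (0.18) and S100a9 (0.40) were higher, with sums of 1.04 to 18.9 FPKM in CD and 2.25 to 33.3 FPKM in HFD. No T and NK cell marker passed the filter in liver, and their sums were 0.91 to 4.25 FPKM in CD and 0.64 to 7.14 FPKM in HFD. Of the B cell genes Blnk (0.34) and of the dendritic cell genes Itgax (0.43) were called, each 1 of 2 tested. Itgax averaged 0.149 ± 0.0713 FPKM in CD and 0.607 ± 0.501 FPKM in HFD liver (SD, n = 24 each). With that spread no CD liver was at 1 FPKM. Itgax thus passed the filter only through HFD livers, where it was high, and its call is no test. All 5 stroma genes were higher, Col1a1 most (1.36), and none of the 5 endothelial genes was called. Of 10 immediate early genes 3 were higher in HFD liver, Jun (1.36), Atf3 (1.22) and Ier3 (0.47). No marker of these lists was at 0 in every liver of a diet. The part of each of these in the chemokine values was not tested.

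In islets 16.6% of all genes were called higher in HFD and 22.0% lower, and the counts of the marker lists, of 2 to 9 genes each, are to be read beside these shares. There 2 of 7 tested macrophage genes were higher in HFD, Adgre1 (0.22) and Mpeg1 (0.17), and sums of the list were 21.1 to 47.6 FPKM in CD and 14.9 to 66.3 FPKM in HFD. No Kupffer cell or neutrophil marker passed the filter there. Lck was lower (-0.25), 1 of 2 tested T and NK cell genes, as were 2 of 6 B cell genes, Cd79a (-0.52) and Cd22 (-0.40), and 3 of 7 acinar genes, Amy2a5 the most (-1.49). Acinar sums were 5427 to 132676 FPKM in CD and 3510 to 44752 FPKM in HFD islets. Of 5 stroma genes Pdgfrb was higher (0.28) and Dcn lower (-0.84), and of 5 endothelial genes Cdh5 was higher (0.11) and Kdr lower (-0.11). Of 11 other chemokines tested in islets Ccl11 was higher (0.26) and Ccl21a (-0.60), Cxcl12 (-0.45) and Cx3cl1 (-0.30) were lower. Neither of the 2 dendritic cell genes nor any of the 9 immediate early genes tested was called.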

How the data were processed

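Poly(A) RNA of islets and liver from 48 mice was sequenced on a BGISEQ-500 by the authors. The deposited values are FPKM per gene with 2 decimals. The submitters' processing notes name HISAT2 2.0.4, Bowtie2 2.2.5, RSEM 1.1.12, DESeq2 and the build GRCm38.p5. No read counts were used and the depth per library is unknown, and whether counting was stranded is not given in the sources used here. The deposited table also holds the authors' own averages, ratios, p-values and cluster labels, which were not used.

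Members were the 9 genes whose symbols match the given names. FPKM was taken as log2(FPKM + 1), and genes that reached 1 FPKM in 4 or more libraries of a fit were tested with limma 3.58.1 (R 4.3.3, trended and robust variance) by week, over all weeks (groups of diet and week), late minus early, across weeks in CD (F test), between tissues and for diet by tissue. P-values were adjusted over all genes tested (Benjamini-Hochberg), and 0.05 was the threshold. Every member was named, with the receptors and at most 5 called genes of any other list and 3 genes most like each member, and some items of these lists are not reported here. The members and lists were chosen with earlier results of these data known. Islets and liver with the same number come from 1 mouse, which pairs the tissues, and the mouse as a block was an alternative. Alternatives were a pseudocount of 0.1 FPKM, no filter, median ratio scaling, insulin left out of the library sum, a log2 difference of at least 1, all groups in 1 fit, and each replicate left out. Leaving out sets of libraries that stood apart, and a pseudocount of 0.1 FPKM without the filter, were chosen after seeing the data. The limma steps were tested on simulated data. P-values measure the spread between mice.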

Additional observations from a re-analysis of the deposited data

Results flagged for a closer look

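In 6 of the 56 groups of 4 mice with a mean of at least 1 FPKM, 1 mouse stood far from the other 3. Normally distributed values would give about 2.8 such groups. FPKM was not log-transformed here and every flagged value was the highest of its group, so this comparison is rough. The rule on the mean can also depend on the flagged mouse, as for CD104 below. For Ccl2 in HFD liver at week 16 it was HFD416 with 5.14 FPKM, beside 2.14 to 2.38 FPKM in the others. For Ccl5 in CD liver at week 8 it was CD207 with 2.91 FPKM, beside 1.56 to 1.75 FPKM. Cxcl1 had 22.82 FPKM in HFD118 at week 4, beside 2.22 to 5.69 FPKM, and 22.86 FPKM in HFD212 at week 8, beside 9.17 to 11.43 FPKM. For Cxcl9 in CD liver at week 4 it was CD104 with 1.68 FPKM, beside 0.8 to 0.92 FPKM, and for Cxcl10 in CD liver at week 24 CD606 with 1.61 FPKM, beside 1.1 to 1.17 FPKM.

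The diet difference differed between the tissues by limma's test of the difference for 6 members, where 35.5% of genes were called in this direction. They were Cxcl10 (-1.04), Ccl2 (-0.97), Cxcl1 (-0.67), Cxcl9 (-0.63), Ccl5 (-0.55) and Ccl4 (-0.40, islets minus liver, log2). Ccl4 passed the filter only through HFD libraries. Cxcl1 lost its call without any 1 of 22 mice, and with a pseudocount of 0.1 FPKM (-0.40, adjusted p = 0.375).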

How the results depend on the processing

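Over all weeks in liver, 5 members were called, where 35.8% of genes were called higher, and 9 without the filter, where 25.8% were. The count was 8 with a pseudocount of 0.1 FPKM and no filter, where 4775 of 18453 genes were higher. With median ratio scaling it was 3, where 1912 of 10820 genes were higher. It was 3 without HFD416, HFD516 and HFD517, and 2 when a log2 difference of at least 1 was asked. For these last settings no share over all genes is given. Of the tests of single weeks in liver 8 were called and 14 without the filter. With the filter 0.0405 to 9.42% of genes were called higher by week. Without it the shares were 3.64% after 12 weeks, 4.66% after 16 and 0.352% after 24. In islets over all weeks 0 were called, where 38.6% of genes were called in either direction. With insulin left out of the library sum 2 were called, where 8109 of 14106 genes were called higher. Without HFD113, HFD118, CD407 and CD608 the count was 1 (Ccl5), but they were picked for their Ccl5 values, so that this is no test. Across weeks in CD islets 0 were called, against 1 with a pseudocount of 0.1 FPKM, 1 without the filter and 2 with insulin left out. Of all genes 77.5% were called there with the filter and 55.7% without it. In CD liver 1 was called, where 55.0% of genes were, against 2 with a pseudocount of 0.1 FPKM and 0 without the filter. Between tissues 5 were called, 8 without the filter and 3 at a log2 difference of at least 1. Of all genes 30.2% were lower in islets with the filter and 24.2% without it. For diet by tissue 6 were called, where 35.5% of genes were lower in islets, and 1 at that size. With the mouse as a block (paired tissues) 5 and 6 members were called and no call changed. Leaving out each replicate in turn gave 7 to 10 calls by week in liver, 0 to 1 late against early in liver, 0 to 1 across weeks in CD islets, 0 to 2 in CD liver and 4 to 6 for diet by tissue. Direction turned for Cxcl10 in islets (0.0078) and Ccl5 between tissues (0.40) with insulin left out, Ccl4 between tissues (-0.14) with median ratio scaling, Ccl5 late against early in islets (0.059) without the 4 islet libraries, and Cxcl9 late against early in liver (-0.016) without the 3 livers. Beyond the construction of each alternative, the cause was not tested. Depth is unknown, so how far counting error limits values under 1 FPKM cannot be stated.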
